A study of Mus musculus with 18 samples.

Results

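The replication-dependent histone genes were examined as a group: the protein-coding genes whose names begin with Hist1h, Hist2h, Hist3h or Hist4. The rule took 67 of the 54532 genes in the deposited table: 6 H1, 18 H2a, 18 H2b, 12 H3 and 13 H4 genes. It left out 3 pseudogenes with such names. Polyadenylated RNA had been sequenced from Arf-B, Arf-C and Ctrlv2 cells, all of ES-E14TG2a, a line of mouse embryonic stem cells, at day 8 of differentiation and at its start (day 0), with 3 libraries in each of the 6 groups. The genotype label is wild type in all groups, and the sources used here say neither how the Arf lines were derived nor whether each is 1 clone. Per the labels, activin A (20 ng/mL) and Matrigel were present from day 0 and retinoic acid with FGF10 (10 ng/mL) between day 4 and day 8. The title of the series speaks of p19Arf and of the pancreatic lineage. Nothing in the labels states that replicates were separate cultures, so a p-value here refers to the spread among libraries, which may be technical.

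Histone cluster genes encode the bulk of the core histones H2A, H2B, H3 and H4, around which DNA is wound in nucleosomes, and the H1 linker histones that bind the DNA between them. Their mRNAs are made mainly in S phase, when new DNA has to be packaged. They are the known animal mRNAs that normally end without a poly(A) tail: a short stem-loop after the stop codon is bound by Slbp (stem-loop binding protein), and the RNA is cut just behind it. A minor part of the transcripts of some of these genes runs past the stem-loop to a polyadenylation signal, so a poly(A) library shows the tailed forms and any untailed carry-over, and not the total histone mRNA.

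The stem-loop is printed because gene models are divided below by how far they run past it. It was found both in models that end near it and in models that run far past it. In the GENCODE vM21 transcripts, 44 of the 67 genes had a 16-base stem-loop of 6-base stems around a 4-base loop, starting 21 to 58 bases (median 31) after the stop codon. There were 6 versions, written here 5′ to 3′ as DNA with the loop in capitals. The first was found in 26 genes (3 H1, 10 H2a, 8 H2b and 5 H3), of which Hist1h1c had the highest level. The next was found in 7 H4 genes, led by Hist1h4n. The third was found in 6 genes (1 H1, 2 H2b and 3 H3), led by Hist1h3c. A further pair of versions was found in 2 H4 genes each, led by Hist1h4i and Hist1h4j, and the last in Hist2h2ac.
Hist1h1c stem-loop: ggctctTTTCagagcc
Hist1h4n stem-loop: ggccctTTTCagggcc
Hist1h3c stem-loop: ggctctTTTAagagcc
Hist1h4i stem-loop: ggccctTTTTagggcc
Hist1h4j stem-loop: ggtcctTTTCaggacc
Hist2h2ac stem-loop: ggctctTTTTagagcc
The search asked for full pairing in the stem. It also fixed the outer GG and CC and the innermost T and A of the stem, and TTT as the first 3 loop bases. The last loop base was free, and was C, A or T. A gene without a match may hold a stem-loop of another sequence. H4 genes had stems that no gene of the other classes had. Of the 23 genes without a match, 17 had a transcript model that stopped within 50 bases of the stop codon, before or near the point where the stem-loop would lie.

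Promoter sequence was matched for 61 of the 67 genes in RefSeq (GRCm38.p6), each a window of 250 bases before and 50 after the start. TATAAA was present on either strand in 35 of the 61 (57.4%), against 14.2% of the 27025 promoters of all genes. CCAAT was present in 52 (85.2%), against 37.9%: in all 6 H1, 17 H2a, 16 H2b and 10 H3 windows, and in 3 of 12 H4 windows. The octamer ATTTGCAT, first described in H2B genes, was present in 7 of 17 H2a and 6 of 16 H2b windows and in no window of the other classes, against 1.75% of all promoters. AAACACA, known as the H1 box, was present in 5 of 6 H1, 2 H2a and 2 H2b windows, against 7.14% of all promoters. Many H2a and H2b genes lie head to head (below), so their windows cover much of the same DNA and a match can count for both genes. The octamer was found in both windows for Hist1h2ae and Hist1h2bg, for Hist1h2ah and Hist1h2bk, and for Hist1h2aa and Hist1h2ba. The last pair also had the H1 box in both windows. The H2a and H2b counts are thus not independent. A match of letters is a description and not a binding site. The promoters of 4 genes are shown, those of the genes with the highest level in the H1 and H4 classes and of the H2b genes Hist3h2ba and Hist1h2bg, whose day 8 values stand out below. Each is the 150 bases before the RefSeq start, with matches to any of the 4 motifs in capitals.
Hist1h1c promoter, chr13:23738657-23738806, plus strand: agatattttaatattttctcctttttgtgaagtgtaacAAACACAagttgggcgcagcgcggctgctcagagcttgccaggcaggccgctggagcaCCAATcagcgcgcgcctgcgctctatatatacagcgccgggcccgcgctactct
Hist1h4i promoter, chr13:22041363-22041512, minus strand: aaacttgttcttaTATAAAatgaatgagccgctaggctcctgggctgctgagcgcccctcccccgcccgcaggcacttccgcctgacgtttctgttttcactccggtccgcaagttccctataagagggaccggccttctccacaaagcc
Hist3h2ba promoter, chr11:58948761-58948910, plus strand: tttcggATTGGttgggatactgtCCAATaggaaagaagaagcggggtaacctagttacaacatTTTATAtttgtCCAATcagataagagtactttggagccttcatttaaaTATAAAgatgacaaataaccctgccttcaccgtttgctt
Hist1h2bg promoter, chr13:23571250-23571399, plus strand: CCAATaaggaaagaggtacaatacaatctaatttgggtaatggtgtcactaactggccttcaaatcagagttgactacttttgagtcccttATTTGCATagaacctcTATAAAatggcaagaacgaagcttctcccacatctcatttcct
Hist1h1c had the H1 box 112 bases and CCAAT 54 bases before its start. Hist3h2ba had 3 CCAAT matches and TATAAA 39 bases before its start, and Hist1h2bg had the octamer 59 bases and TATAAA 43 bases before its start. In Hist1h4i the nearest TATAAA lay 137 bases before the start.

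The genes lie in 5 places in the mm10 assembly. On chromosome 13, 31 lie between 23531050 and 23934851 and 23 between 21715763 and 22043676. A further 10 lie on chromosome 3, 2 on chromosome 11 and 1, Hist4h4, on chromosome 6. The 31 took 68.1% of the reads on histone cluster genes, and the 23 took 20.4%. All 67 had the positions of GENCODE vM21. H2a and H2b genes formed 12 head-to-head pairs whose starts were 175 to 305 bases apart, among them Hist1h2ae and Hist1h2bg (175 bases) and Hist1h2ac and Hist1h2bc (250 bases). Because the coding sequences are so alike, 28 genes shared over 50% of their 100-base words with transcripts of other genes, and 24 overlapped another annotated gene. Reads that fit several copies, and reads from either strand of an overlap, may have been dropped or assigned among copies in a way that these files do not show, so the values of such genes are uncertain. Of the 35 genes tested below, 10 shared over 50% of their words, from 61.6% (Hist2h3c2) to 92.7% (Hist1h2ao). The others of the 10 are Hist1h2ah, Hist1h2an, Hist1h2bk, Hist1h2bl, Hist1h3h, Hist1h3i, Hist1h4k and Hist1h4n.

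Reads on genes numbered 10432590 to 33311220 per library, and the day 8 groups were shallower than the day 0 groups. Group means at day 8 were 19967324 in Arf-B, 15247361 in Arf-C and 12502136 in Ctrlv2. Between 321 and 1734 reads per library fell on the histone cluster genes, 0.00307% to 0.00836% of the reads on genes. The fewest were found in Ctrlv2 at day 8 (321 to 568), against 1430 to 1734 in Arf-B and 977 to 1096 in Arf-C at that day. Cdkn2a, which encodes p19Arf and p16Ink4a, had 40.1 to 44.7 FPKM in Arf-B, 42.6 to 46.3 in Arf-C and 32.0 to 34.3 in Ctrlv2 libraries at day 8. At day 0 it was low in all 3 lines, with 1.675 to 2.145 FPKM in Arf-B, 2.179 to 2.371 in Arf-C and 1.894 to 3.358 in Ctrlv2 libraries.

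Levels were low throughout. FPKM (fragments per kilobase of gene and per size of the library) divides by the deposited gene length. An order of genes by FPKM thus depends on that length, and on how reads shared between copies were counted. For example, Hist1h1d had 447 reads in all on 7425 bases (mean 0.158 FPKM), and Hist1h4k had 296 reads on 312 bases (mean 2.23 FPKM). Averaged over the 18 libraries, 13 of the 67 genes reached 1 FPKM, 2 reached 5 FPKM and 14 stayed below 0.1 FPKM. Hist1h1c, which encodes the linker histone H1.2, averaged 9.05 FPKM, and the H2b gene Hist1h2bc averaged 7.23 FPKM. Together they made up 29.5% of the summed FPKM of all 67, and with Hist1h4i (4.52 FPKM) and Hist3h2ba (2.76 FPKM) 42.8%. At the other end, 5 genes were at 0 in all libraries: Hist2h2aa1, Hist2h2aa2, Hist2h2bb, Hist2h3b and Hist2h3c1. Each of these shared 100% of its 100-base words with transcripts of other genes, while no other member exceeded 94.8%.

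Genes whose models run past the stem-loop held most of the reads, mainly through Hist1h1c. The 22 genes whose model runs over 100 bases past the stem-loop took 56.7% of the reads on members, and their median mean was 0.401 FPKM. Hist1h1c gave 5352 of their 11774 reads, and without it the others held 41.7% of the remaining reads on members. Hist1h1c (chromosome 13, 23738808 to 23740367, plus strand) belongs here: its transcript model continues for 840 bases behind the stem-loop. The 22 genes whose model ends within 100 bases of the stem-loop took 10.1% of the reads, with a median mean of 0.224 FPKM. AATAAA, the polyadenylation signal, stood in the last 50 bases of 9 of the first 22 models and of none of the second. A further 6 genes had no match to the stem-loop pattern but a long model, and took 24.6%. Hist1h2bc (chromosome 13, 23684199 to 23692908, plus strand), with 742 bases after its stop codon, is among them. The 17 with neither took 8.52%.

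**Figure D1:**
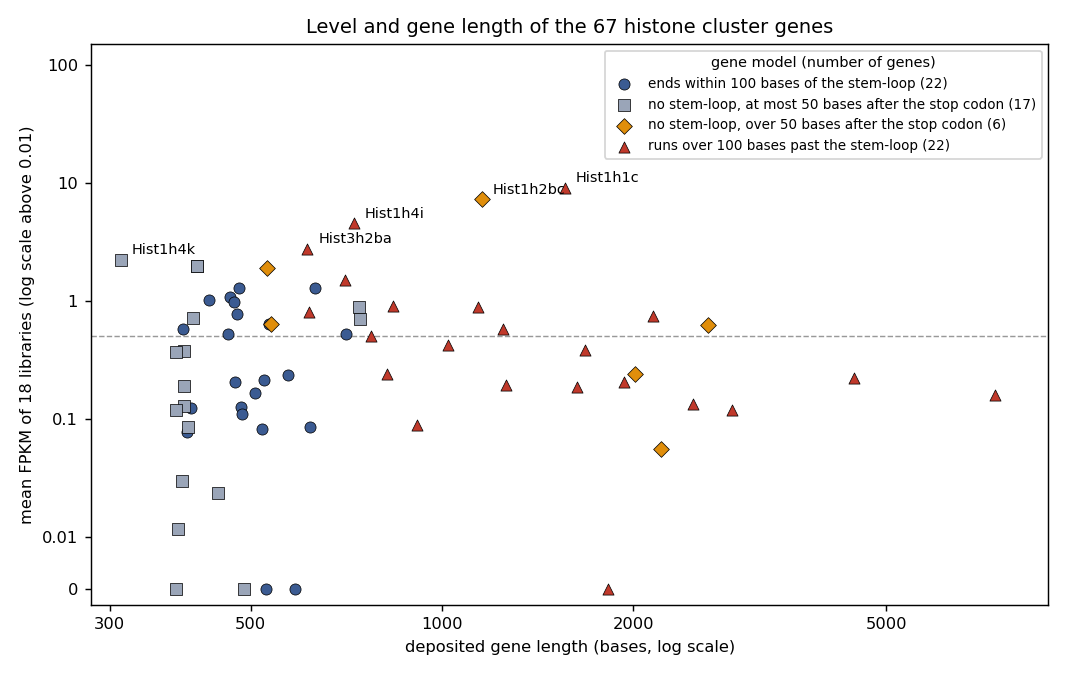
Mean FPKM over 18 libraries (vertical axis, log scale above 0.01) against the deposited gene length in bases (horizontal axis, log scale) for the 67 histone cluster genes, with marker shapes for the 4 kinds of gene model and a dashed line at 0.5 FPKM. Hist1h1c and Hist1h2bc, both with long models, lie above 5 FPKM, and the 5 genes without a read lie on the 0 line.

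By share of reads, length alone gave a similar split. Genes of at least 1000 bases took 63.7% of the reads on members, and those of at least 600 bases took 83.4%. Genes whose model runs over 100 bases past the stem-loop were 614 to 7425 bases long. Those whose model ends within 100 bases of it were 391 to 706 bases long. The part of length in the read shares was not tested. Median levels gave no steady order. The 18 genes of at least 1000 bases had a median mean of 0.231 FPKM and the 49 shorter ones 0.378 FPKM, but with the division set at 600 bases the medians were 0.502 and 0.21 FPKM, so no order by length is drawn. The plot of level against length shows both high and low genes among the long models. By class, the median of the mean FPKM was 0.452 for H1, 0.131 for H2a, 0.374 for H2b, 0.605 for H3 and 0.579 for H4. H2b and H1 genes took 32.9% and 31.1% of the reads on members, each mostly through its highest gene.

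A gene was tested where it reached 0.5 FPKM in at least 3 libraries. This kept 35 of the 67: 3 H1, 6 H2a, 10 H2b, 8 H3 and 8 H4 genes; the other 32 were too low, and nothing is said of their changes. Tests used limma on log2(FPKM + 1) over all 17200 genes that passed, and a gene was called at a Benjamini-Hochberg adjusted p below 0.05. Fold changes are therefore on the log2(FPKM + 1) scale, which understates changes of low genes.

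At day 8 histone cluster genes were higher in both Arf lines than in Ctrlv2. Of the 35 tested genes, 14 were called higher in Arf-B, while 16.3% of all genes tested were called higher, and none was called lower, while 16.9% of all genes were. In Arf-C, 17 were called higher and none lower, with 16.8% of all genes called in each direction; the 17 became 11 without Ctrlv2 replicate 3. With limma-voom on the recovered reads, 10 and 13 were called higher and again none lower, and at an unadjusted p below 0.05 limma gave none lower either. The median log2 fold change of the tested genes was 0.29 in Arf-B and 0.46 in Arf-C, while that of all genes was 0.01 in both. Hist1h2bg and Hist1h2an were at 0 in Ctrlv2. With Hist1h2bg set to a bound and Hist1h2an left out, the medians were 0.28 and 0.48. With every library scaled to the same sum of FPKM, the share of higher calls among all genes called at day 8 was 68.9% for Arf-B and 63.5% for Arf-C, against 49.0% and 50% as deposited. No histone gene called at day 8 changed direction under that scaling; Hist1h4a and Hist1h4j, with fold changes of -0.02 in Arf-B and no call, did. Both comparisons use the same 3 Ctrlv2 libraries, so the lines are not independent of each other here. In bulk RNA, fewer cells that express a gene and less of its RNA per cell cannot be told apart.

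Each class contributed. Per class, Arf-B had 3 H1, 2 H2a, 5 H2b, 2 H3 and 2 H4 genes called higher, and Arf-C had 1 H1, 3 H2a, 7 H2b, 4 H3 and 2 H4 genes. Summed over all 67 genes, including those too low to test, the level was 67.3, 75.5 and 71.8 FPKM in Arf-B, 66.1, 71.2 and 69.6 FPKM in Arf-C, and 35.4, 32.3 and 28.1 FPKM in Ctrlv2. Every Arf library thus lay above every Ctrlv2 library, with means 2.24 and 2.16 times that of Ctrlv2. The same separation held in each of the 5 classes. The ratio of mean sums was widest for H2b, 3.68 in Arf-B and 3.8 in Arf-C. It was 2.23 and 1.44 for H1, 2.47 and 3.48 for H2a, 1.56 and 2.17 for H3, and 1.73 and 1.59 for H4. Without the highest gene of each class, all libraries stayed apart in 3 classes (H2a, H2b and H3) for Arf-C. For Arf-B they stayed apart in H1, H2a, H2b and H3. H4 without Hist1h4i overlapped in both lines, with 6.53, 10.6 and 7.96 FPKM in Arf-B against 7.26, 6.455 and 3.61 FPKM in Ctrlv2.

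**Figure D2:**
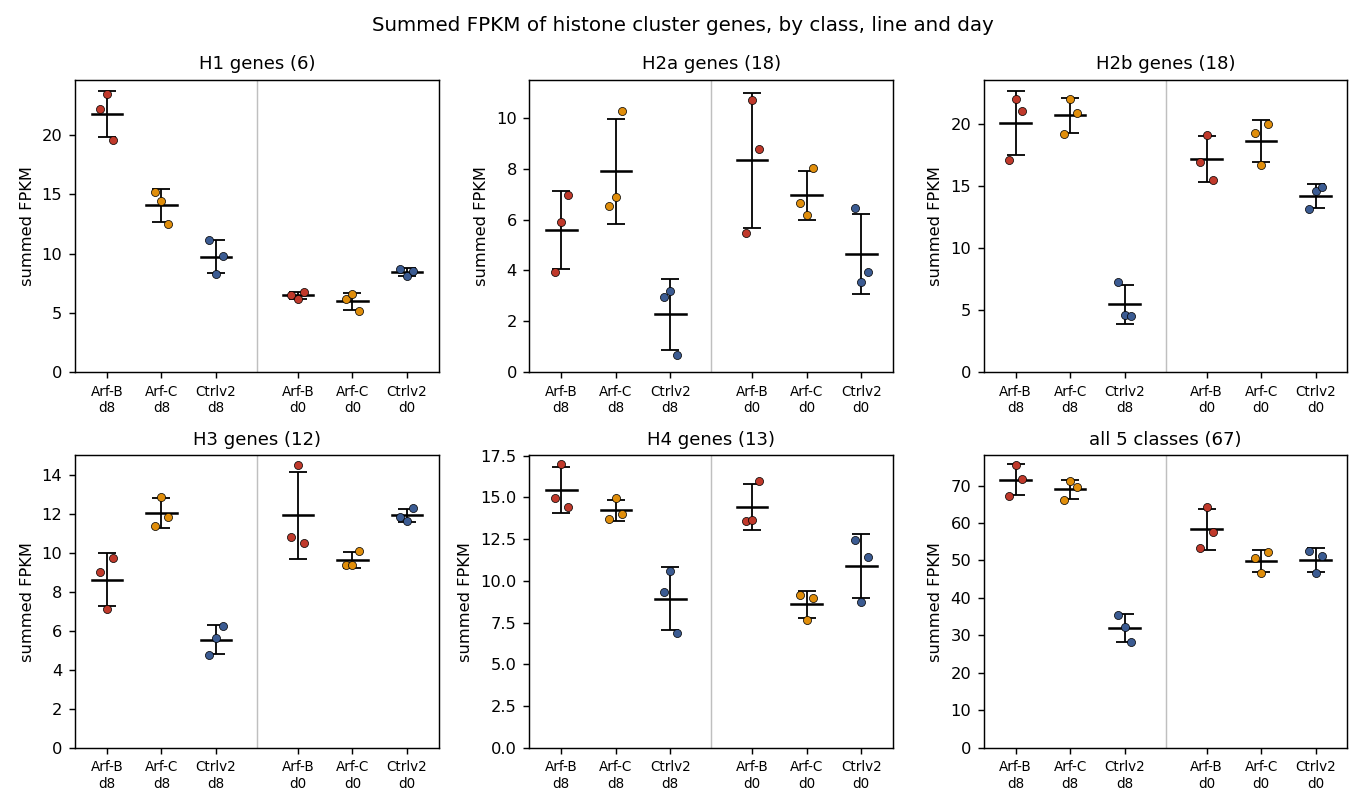
Summed FPKM (vertical axes, from 0) of the H1, H2a, H2b, H3 and H4 genes and of all 67, in the 3 libraries (points) of Arf-B, Arf-C and Ctrlv2 at day 8 and day 0, with the mean and SD (bars). At day 8 every Arf library lies above every Ctrlv2 library in each panel; the all-gene sums are 71.6 and 69.0 FPKM in Arf-B and Arf-C and 32.0 FPKM in Ctrlv2.

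The plot of class sums shows that the classes differ in how they stood at day 0, which is taken up below. H2b at day 8 was 20.1 ± 2.58 FPKM in Arf-B and 20.7 ± 1.39 FPKM in Arf-C, against 5.46 ± 1.54 FPKM in Ctrlv2 (SD, n = 3).

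Among the H1 genes, Hist1h1c carried most of the signal. At day 8 it had 18.4, 20.2 and 16.8 FPKM in Arf-B, 12.6, 11.95 and 10.8 FPKM in Arf-C and 8.81, 7.06 and 8.41 FPKM in Ctrlv2. The 3 lines did not overlap. Against Ctrlv2 it was higher by 1.10 (SE 0.10) in Arf-B and by 0.49 (SE 0.10) in Arf-C on the log2 scale (limma adjusted p = 6.46e-07 and 0.00121). Hist1h1a and Hist1h1b, which encode the linker histones H1.1 and H1.5, were near 1 FPKM. Hist1h1a had 1.39, 1.74 and 1.31 FPKM in Arf-B and 1.05, 0.381 and 0.64 FPKM in Ctrlv2, without overlap (log2 fold change 0.57, limma adjusted p = 0.00862, and 0.0829 with limma-voom). Hist1h1b was called in Arf-B (0.49, limma adjusted p = 0.0319) on few reads, 13 to 34 per Arf-B library against 4 to 9 per Ctrlv2 library, and the call was lost without Arf-B replicate 1 (adjusted p = 0.166), Ctrlv2 replicate 2 (0.0636) or Ctrlv2 replicate 3 (0.117). Hist1h1e, the gene of H1.4, stayed below the filter with 0.0488 to 0.407 FPKM in the day 8 libraries.

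The H2b genes gave the clearest separation. Hist1h2bc had 6.81, 7.35 and 6.74 FPKM in Arf-B, 6.38, 7.13 and 6.15 FPKM in Arf-C, and 2.30, 2.12 and 2.12 FPKM in Ctrlv2 at day 8. Arf libraries were close to each other and all far above the Ctrlv2 libraries (log2 fold changes 1.33 and 1.25, SE 0.10, limma adjusted p = 1.2e-07 and 2.32e-07). Hist3h2ba, an H2b gene outside the large clusters (chromosome 11, 58948920 to 58949533, plus strand), had the largest fitted fold change of the tested genes in both lines. Its day 8 values were 5.84, 6.31 and 7.78 FPKM in Arf-B, 6.30, 6.38 and 5.53 FPKM in Arf-C, and 1.37, 0.46 and 1.16 FPKM in Ctrlv2. This is a log2 fold change of 1.96 for Arf-B and 1.85 for Arf-C (SE 0.18, limma adjusted p = 9.28e-07 and 1.66e-06). Its Ctrlv2 values rest on 13, 3 and 9 reads.

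Hist1h2bg (chromosome 13, 23571396 to 23572013, plus strand) had no read in any Ctrlv2 library at day 8. It had 13, 22 and 10 reads in Arf-B and 15, 17 and 6 reads in Arf-C, which correspond to 1.17 ± 0.653 and 1.23 ± 0.54 FPKM (SD, n = 3). With a floor of 3 reads per library, equal to 0.315 to 0.457 FPKM in Ctrlv2, it was at least 3.03-fold higher in Arf-B and at least 3.19-fold higher in Arf-C (limma adjusted p = 0.00216 and 0.00149). Its head-to-head neighbour Hist1h2ae, the H2a gene with the highest level, was called in Arf-C alone at day 8, with 2.405, 1.33 and 2.77 FPKM against 0.0921, 1.34 and 0.112 FPKM in Ctrlv2. One Ctrlv2 library reached the range of Arf-C, and the call (log2 fold change 1.13, limma adjusted p = 0.0157) was lost without Arf-C replicate 3 (adjusted p = 0.063), Ctrlv2 replicate 1 (0.0643) or Ctrlv2 replicate 3 (0.0639). In Arf-B, Hist1h2ae had 0.527, 1.22 and 0.817 FPKM. Whether the pair responded differently was not tested.

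**Figure D3:**
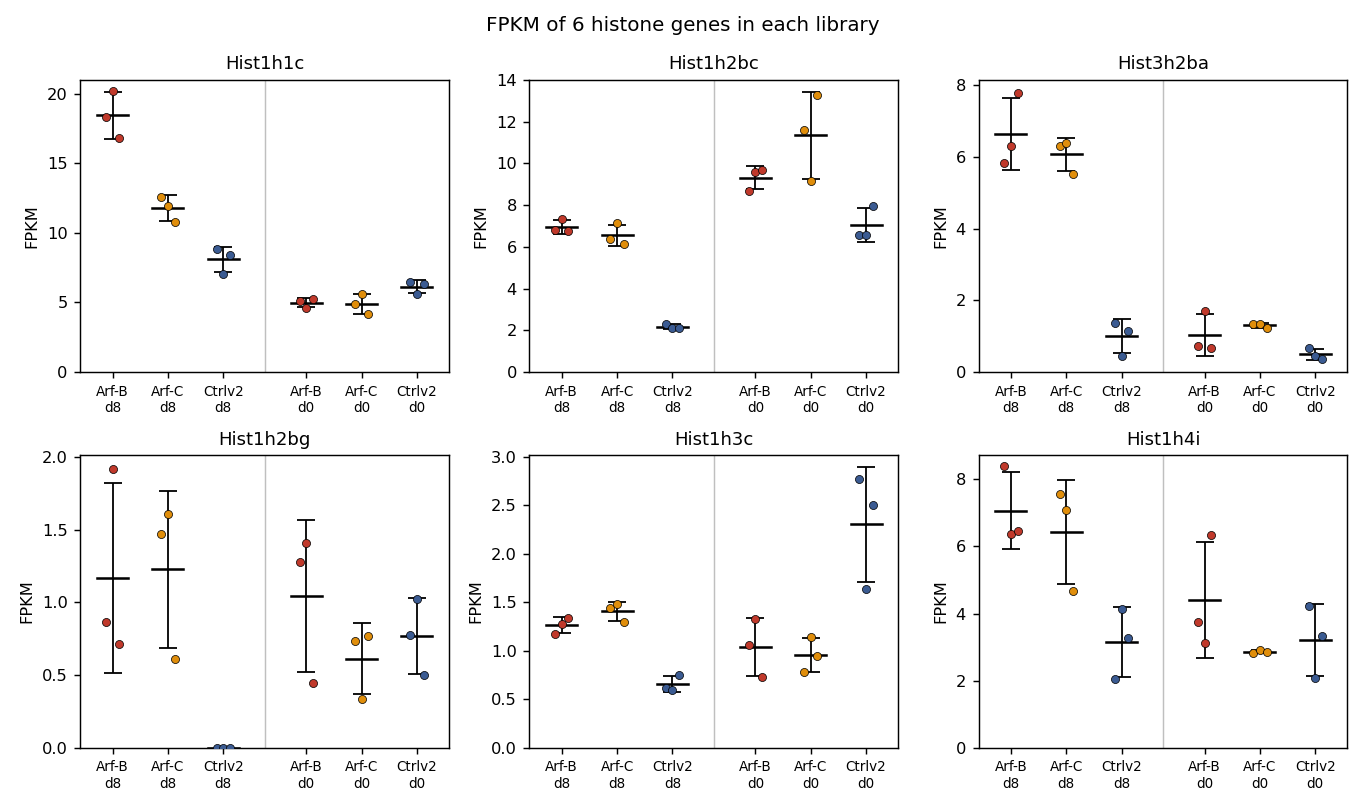
FPKM (vertical axes, from 0) of Hist1h1c, Hist1h2bc, Hist3h2ba, Hist1h2bg, Hist1h3c and Hist1h4i in the 3 libraries (points) of each line at day 8 and day 0, with the mean and SD (bars). At day 8 all Arf libraries lie above all Ctrlv2 libraries in every panel, and Hist1h2bg is at 0 in the 3 Ctrlv2 libraries.

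The plot of 6 genes by library shows that the height of the Arf lines at day 8 goes with different day 0 levels from gene to gene. Of the other H2b genes, Hist1h2bj was called in Arf-C (0.91, limma adjusted p = 0.0368), with 0.914, 2.27 and 2.58 FPKM against 1.401, 0.203 and 0.171 FPKM in Ctrlv2. These libraries overlapped, and the call was lost without Arf-C replicate 2 (adjusted p = 0.116), Arf-C replicate 3 (0.135), Ctrlv2 replicate 2 (0.13) or Ctrlv2 replicate 3 (0.133). Hist2h2be, named after its values were seen, had 1.09, 1.05 and 1.11 FPKM in Arf-B, 0.669, 0.758 and 0.6 FPKM in Arf-C and 0.371, 0.216 and 0.0905 FPKM in Ctrlv2 (log2 fold changes 0.77 and 0.46, limma adjusted p = 2.07e-05 and 0.00197).

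The remaining H2a genes lay lower. Hist1h2ao had 0.882, 1.58 and 2.36 FPKM in Arf-C and 0.27, 0.589 and 0 FPKM in Ctrlv2 at day 8 (log2 fold change 1.01, limma adjusted p = 0.0217). The libraries did not overlap, but the call was lost without Arf-C replicate 2 (adjusted p = 0.056), Arf-C replicate 3 (0.0946) or Ctrlv2 replicate 3 (0.0856). Hist3h2a, the neighbour of Hist3h2ba, had 1.21, 1.65 and 1.01 FPKM in Arf-B and 1.06, 0.526 and 0.368 FPKM in Ctrlv2. These overlapped (log2 fold change 0.49, limma adjusted p = 0.0194), and the call was lost without Arf-B replicate 2 (adjusted p = 0.0968), Ctrlv2 replicate 2 (0.0659) or Ctrlv2 replicate 3 (0.0954). Hist3h2a also overlaps Trim17 on the same strand, which had 0.059 to 0.486 FPKM. Hist1h2an, named after its values were seen, was called in Arf-B with 1 to 7 reads per library against none in Ctrlv2 (limma adjusted p = 0.0498, and 0.138 with limma-voom); its Arf-B mean of 0.413 FPKM lies under the value of 3 reads per Ctrlv2 library, so no fold is given. Hist1h2ah was called in neither line, with 0.509, 0.797 and 0.655 FPKM in Arf-B, 1.05, 0.289 and 0.932 FPKM in Arf-C and 1.12, 0.232 and 0 FPKM in Ctrlv2.

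Among the H3 genes, Hist1h3c (chromosome 13, 23744973 to 23745602, minus strand) separated both lines. It had 1.18, 1.28 and 1.33 FPKM in Arf-B, 1.44, 1.48 and 1.30 FPKM in Arf-C and 0.618, 0.598 and 0.752 FPKM in Ctrlv2 (log2 fold changes 0.45 and 0.54, limma adjusted p = 0.0116 and 0.00366). The Ctrlv2 values rest on 4 to 6 reads per library, and limma-voom on the recovered reads did not call either difference (adjusted p = 0.175 and 0.111). Hist1h3g was called in both lines, with log2 fold changes of 1.03 and 0.98 (limma adjusted p = 0.005 and 0.00681). It had 2.88, 1.01 and 2.59 FPKM in Arf-B, 2.74, 1.54 and 1.66 FPKM in Arf-C and 0.734, 0 and 0.894 FPKM in Ctrlv2. Every Arf library was above every Ctrlv2 library. Hist1h3i was called in Arf-C, with 2.65, 3.27 and 2.91 FPKM against 0, 0.458 and 1.73 FPKM in Ctrlv2 (log2 fold change 1.31, limma adjusted p = 0.00131). In Arf-B its 1.505 to 1.615 FPKM lay within the Ctrlv2 range. Hist1h3h had 1.505, 1.44 and 0.861 FPKM in Arf-B and 1.58, 2.52 and 1.54 FPKM in Ctrlv2, all Arf-B libraries below, without a call. In all, 28 of the 35 tested genes had a positive fold change in Arf-B and 32 in Arf-C.

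The H4 genes were led by Hist1h4i (chromosome 13, 22040636 to 22041362, minus strand). At day 8 it had 8.395, 6.36 and 6.45 FPKM in Arf-B, 7.57, 7.07 and 4.67 FPKM in Arf-C and 2.05, 4.14 and 3.26 FPKM in Ctrlv2, without overlap. The log2 fold changes were 0.98 (SE 0.24, limma adjusted p = 0.00574) and 0.85 (SE 0.24, limma adjusted p = 0.0137). In Arf-C the call was lost without Arf-C replicate 1 (adjusted p = 0.0558), Arf-C replicate 2 (0.0507) or Ctrlv2 replicate 1 (0.0662). Hist1h4k was called in Arf-B, with 1.59, 5.17 and 2.69 FPKM against 0.624, 1.51 and 0 FPKM in Ctrlv2 (1.29, limma adjusted p = 0.0058). Its Ctrlv2 values rest on 8 reads in all. Hist1h4h was called in Arf-C, with 1.16, 2.11 and 1.61 FPKM against 0.552, 0.801 and 0.504 FPKM in Ctrlv2 (0.69, limma adjusted p = 0.0148), and that call was lost without Arf-C replicate 2 (adjusted p = 0.0732) or Ctrlv2 replicate 3 (0.0505) and with limma-voom (0.115). Hist1h4n was called in neither line, and its libraries overlapped, at 0.25 to 1.03 FPKM in Arf-B, 0.544 to 1.90 FPKM in Arf-C and 0.367 to 2.19 FPKM in Ctrlv2.

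Across the tested genes, 13 had all 3 Arf-B libraries above all 3 Ctrlv2 libraries at day 8, and 15 had all 3 Arf-C libraries above. Among all genes tested these shares were 23.5% and 22.3%. The reverse order was seen for Hist1h3h in Arf-B and for no tested member in Arf-C, while 22.9% and 22.4% of all genes showed it. Side by side, Hist1h1c, Hist1h2bc, Hist1h2bf, Hist1h2bg, Hist1h3c, Hist1h3g, Hist1h4i, Hist2h2be and Hist3h2ba were called higher in each of the 2 lines, which share their Ctrlv2 libraries. Hist1h2bf, named after its values were seen, was not called by limma-voom in either line (adjusted p = 0.0604 and 0.0815).

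**Figure D4:**
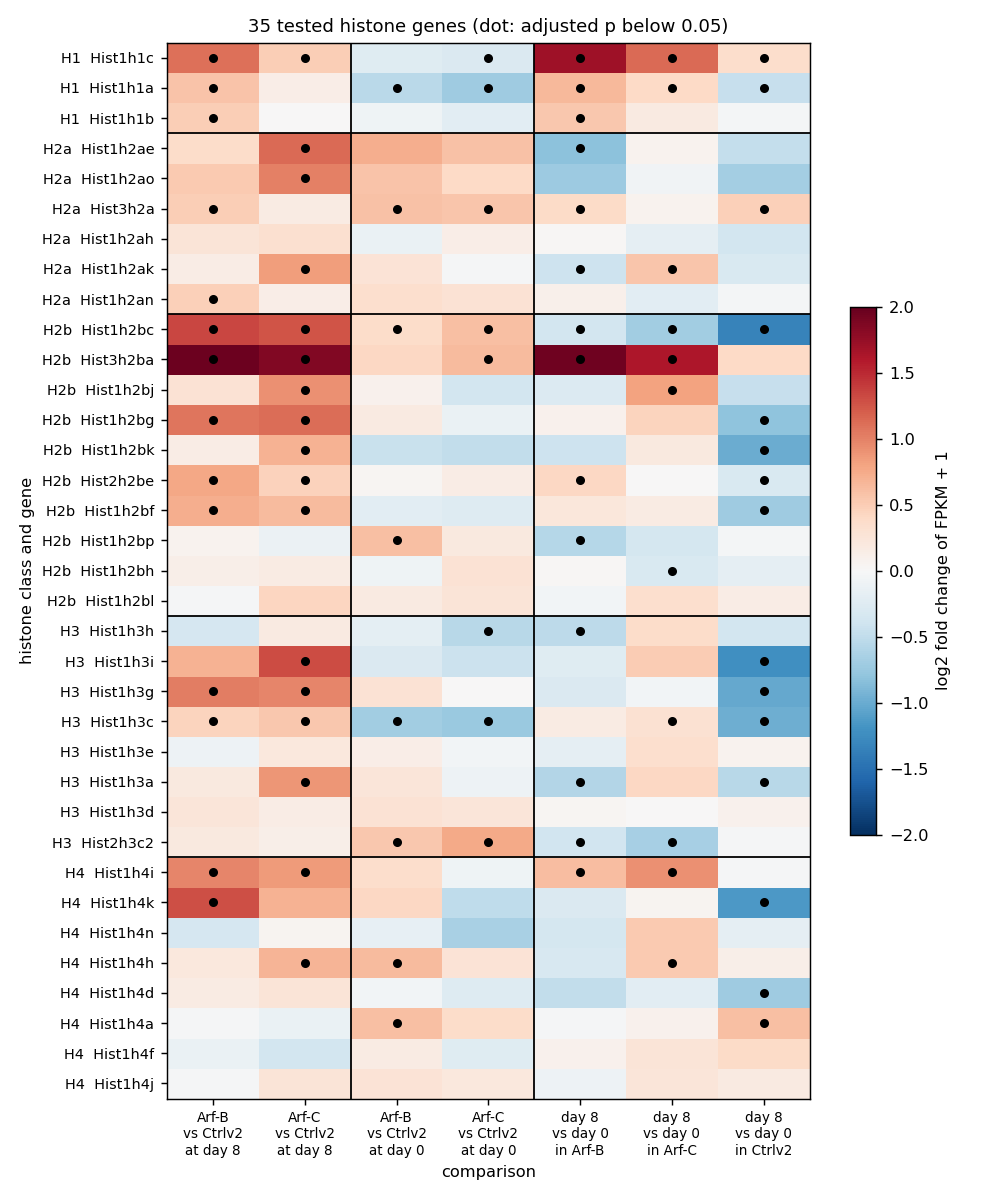
Log2 fold changes of FPKM + 1 (colour scale) of the 35 tested histone genes (rows, by class) in 7 comparisons (columns), with a dot where the limma adjusted p was below 0.05. The day 8 columns against Ctrlv2 hold 14 and 17 dots, all on positive values, while the day 0 columns and the day 8 against day 0 columns hold both signs; the colour of Hist1h2bg and Hist1h2an against Ctrlv2 at day 8 depends on the pseudocount, since Ctrlv2 is at 0.

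Between day 8 and day 0 the lines moved apart in level. In Ctrlv2, 3 of the 35 tested genes were called higher at day 8 and 12 lower, while 33.9% and 34.4% of all genes tested were called in those directions. The 12 are 34.3% of the tested genes, so falls were called about as often as over all genes. The 3 are 8.57%, below the share over all genes. The median log2 fold change was -0.30, against -0.01 over all genes. Per class, 5 H2b, 4 H3, 2 H4 and 1 H1 genes were called lower. The summed FPKM of H2a, H2b and H3 were each lower in all 3 day 8 libraries than in all 3 day 0 libraries, with ratios of the means of 0.488, 0.383 and 0.464. H1 (ratio 1.16) and H4 (0.822) overlapped between the days.

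In the Arf lines the counts were more even, and they lay below the shares over all genes in both directions. In Arf-B, 7 were called higher at day 8 and 7 lower, 20% each way, against 32.9% and 33.8% of all genes. The 7 higher became 4 without Arf-B day 8 replicate 1, and the 7 lower became 2 without Arf-B day 8 replicate 1 or day 0 replicate 2, 4 without day 0 replicate 3, and 3 with every library scaled to the same sum of FPKM. In Arf-C, 8 were called higher and 3 lower, 22.9% and 8.57%, against 32.8% and 33.8% of all genes. The 8 became 4 without Arf-C day 0 replicate 1 and 5 with limma-voom. Scaling to the same sum shifted the median log2 fold change of all genes by 0.13 in Arf-B and 0.11 in Arf-C. Higher calls then made up 62.2% and 60.1% of all genes called, against 49.4% and 49.2% as deposited. H1 was the class with the largest ratio of day 8 to day 0 sums, 3.35 in Arf-B and 2.36 in Arf-C, and the libraries of the 2 days lay apart. H3 was lower at day 8 in all Arf-B libraries (0.723) and higher in all Arf-C libraries (1.25), and H4 was higher in all Arf-C libraries (1.65). H4 in Arf-B (1.07), H2a (0.672 in Arf-B, 1.14 in Arf-C) and H2b (1.17 and 1.11) overlapped between the days. These orders depended in part on the highest gene of a class. Without Hist1h2bc, H2b was higher at day 8 in all libraries, with means of 13.1 against 7.89 FPKM in Arf-B and 14.2 against 7.33 FPKM in Arf-C. Without Hist1h4i, H4 in Arf-C overlapped between the days (means 7.78 and 5.73 FPKM). H3 in Arf-B overlapped without Hist1h3h (means 7.36 and 9.70 FPKM). The sum of all 67 genes was higher at day 8 in all libraries of Arf-B (1.23) and Arf-C (1.38), and lower in all of Ctrlv2 (0.637).

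Hist1h1c accounted for most of the rise in H1. At day 0 it had 5.07, 4.64 and 5.27 FPKM in Arf-B, 4.89, 5.59 and 4.15 FPKM in Arf-C and 6.47, 5.62 and 6.30 FPKM in Ctrlv2. Set against these, the day 8 values given above are a log2 fold change of 1.70 in Arf-B, 1.13 in Arf-C and 0.35 in Ctrlv2 (SE 0.10, limma adjusted p = 3.81e-10, 5.28e-08 and 0.00555), and the days did not overlap in any line. Hist3h2ba rose in both Arf lines. Its day 0 values were 0.722, 1.70 and 0.67 FPKM in Arf-B and 1.34, 1.34 and 1.23 FPKM in Arf-C, all below those of day 8, at log2 fold changes of 1.94 and 1.62 (SE 0.18, limma adjusted p = 1.16e-07 and 1e-06). In Ctrlv2 it had 0.669, 0.452 and 0.353 FPKM at day 0, and the change was not called. Hist1h4i also rose in the Arf lines, with log2 fold changes of 0.62 for Arf-B and 0.92 for Arf-C (limma adjusted p = 0.0358 and 0.00348). The Arf-B call was lost without Arf-B day 8 replicate 1 (adjusted p = 0.123), day 0 replicate 1 (0.102) or day 0 replicate 2 (0.156).

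Other genes fell at day 8. Hist1h2bc fell in all 3 lines, and most in Ctrlv2: it had 8.68, 9.57 and 9.69 FPKM in Arf-B, 11.6, 9.14 and 13.3 FPKM in Arf-C and 6.57, 6.58 and 7.96 FPKM in Ctrlv2 at day 0. The log2 fold changes at day 8 were -0.37 in Arf-B, -0.70 in Arf-C and -1.33 in Ctrlv2 (SE 0.10, limma adjusted p = 0.00473, 1.88e-05 and 8.98e-09), and with libraries scaled to the same sum the fall in Arf-B was not called (adjusted p = 0.2). Hist1h3c fell by 0.98 on the log2 scale in Ctrlv2 (limma adjusted p = 3.57e-06), where it had had 2.77, 1.64 and 2.51 FPKM at day 0. Its day 0 values in the Arf lines were 1.05, 1.33 and 0.726 FPKM in Arf-B and 0.785, 1.14 and 0.945 FPKM in Arf-C. In Arf-C it was called higher at day 8 (0.30, limma adjusted p = 0.0457). That call was lost without Arf-C day 8 replicate 1 (adjusted p = 0.0948), 2 (0.11) or 3 (0.056), or Arf-C day 0 replicate 1 (0.157) or 3 (0.0899).

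In Ctrlv2 several H3 and H4 genes fell together with it. Hist1h3i fell by 1.23 on the log2 scale, with 0.729 ± 0.896 FPKM at day 8 and 2.72 ± 0.196 FPKM at day 0 (SD, n = 3; limma adjusted p = 0.000676). Hist1h3g fell by 1.02, to 0.543 ± 0.477 FPKM at day 8, against 2.03 ± 0.388 FPKM at day 0 (limma adjusted p = 0.00198). Hist1h4k fell by 1.15, to 0.711 ± 0.758 FPKM, against 2.62 ± 0.854 FPKM at day 0 (limma adjusted p = 0.00459). All 3 genes had every day 8 library below every day 0 library. Hist1h2bg had 14, 16 and 10 reads in Ctrlv2 at day 0 and none at day 8, so it was at least 1.99-fold lower (limma adjusted p = 0.00569). Hist1h1a fell in Ctrlv2 (-0.46, limma adjusted p = 0.0136), a call lost without Ctrlv2 day 8 replicate 2 (adjusted p = 0.0797) and with limma-voom (0.0856), and rose in Arf-B (0.65, limma adjusted p = 0.0012). Of the 3 genes that rose in Ctrlv2, Hist1h1c and Hist3h2a are described above, and Hist1h4a, named after its values were seen, had 0.797 ± 0.254 FPKM at day 8 and 0.196 ± 0.238 FPKM at day 0 (SD, n = 3). For Hist3h2a the rise in Ctrlv2 (0.48, limma adjusted p = 0.00895) was lost without day 8 replicate 1 (adjusted p = 0.0598).

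Of the 7 genes called lower at day 8 in Arf-B, Hist1h2bc kept its call whichever library was left out, and the other 6 each lost it without at least 1 library. Hist1h3h had 1.27 ± 0.354 FPKM at day 8 and 2.22 ± 0.145 FPKM at day 0 in Arf-B (SD, n = 3), without overlap. That is a log2 fold change of -0.52 (limma adjusted p = 0.0239), lost without Arf-B day 8 replicate 3 (adjusted p = 0.115) or day 0 replicate 2 (0.0654) or 3 (0.0516). The H2b gene Hist1h2bp had 0.0584, 0.61 and 0.627 FPKM at day 8 and 0.762, 1.72 and 0.906 FPKM at day 0 in Arf-B (-0.58, limma adjusted p = 0.0155). The days did not overlap, but the call was lost without Arf-B day 8 replicate 1 (adjusted p = 0.0998) or day 0 replicate 2 (0.0991). Hist1h2ae had 0.527, 1.22 and 0.817 FPKM at day 8 and 1.08, 3.16 and 2.99 FPKM at day 0 in Arf-B, which overlapped (-0.83, limma adjusted p = 0.0379). It lost the call without Arf-B day 8 replicate 1 (adjusted p = 0.12) or 3 (0.076) or day 0 replicate 2 (0.139) or 3 (0.126). The other falls were those of Hist1h2ak, Hist1h3a and Hist2h3c2, named after their values were seen, at -0.41, -0.59 and -0.38 (limma adjusted p = 0.0214, 0.0298 and 0.0117). Their calls were lost without Arf-B day 8 replicate 1, 2 or day 0 replicate 3 (Hist1h2ak, adjusted p up to 0.109), without day 8 replicate 1 or 2 or day 0 replicate 2 or 3 (Hist1h3a, up to 0.121), and without day 8 replicate 1 or day 0 replicate 2 (Hist2h3c2, up to 0.0674). In Arf-C the H2b gene Hist1h2bj rose, with 1.92 ± 0.887 FPKM at day 8 and 0.62 ± 0.186 FPKM at day 0 (0.81, limma adjusted p = 0.0344), and 4 libraries could each end the call when left out (adjusted p 0.0709 to 0.129).

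At day 0, before differentiation, single histone genes were called between Arf and Ctrlv2 cells in both directions, but no more often than genes in general. Of the 35 tested genes, 17.1% (higher) and 5.71% (lower) were called for Arf-B, and 11.4% in either direction for Arf-C. In Arf-B, 6 of the 35 tested genes were called higher and 2 lower, against 19.1% and 20.0% of all genes tested; the 6 became 3 without Arf-B replicate 2, Ctrlv2 replicate 1 or Ctrlv2 replicate 2. In Arf-C, 4 were called higher and 4 lower, against 21.2% and 21.5%; the 4 lower became 2 without Arf-C replicate 1 or Ctrlv2 replicate 3, and 2 with no filter on low values. The sum of all 67 genes was 58.4 ± 5.5 FPKM in Arf-B, 49.8 ± 2.94 FPKM in Arf-C and 50.1 ± 3.15 FPKM in Ctrlv2 (SD, n = 3). By class, H1 was lower in all libraries of both Arf lines (ratios of the means 0.77 and 0.706), and H2b was higher in all of them (1.21 and 1.31). H3 was lower in Arf-C (0.806) and overlapped in Arf-B. H4 was higher in all Arf-B libraries (1.32) and overlapped in Arf-C (0.791), and H2a overlapped in both (1.79 and 1.5). The sum of all 67 genes was higher in all Arf-B libraries (1.16) and overlapped in Arf-C (0.994).

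The genes behind these class sums were few. Hist1h2bc stood above Ctrlv2 by 0.36 (Arf-B) and 0.61 (Arf-C) on the log2 scale (limma adjusted p = 0.011 and 0.000204). Hist1h3c was lower, at log2 fold changes of -0.69 and -0.74 (limma adjusted p = 0.000422 and 0.000208). Hist1h1a had 0.578 ± 0.137 FPKM in Arf-B and 0.396 ± 0.0297 FPKM in Arf-C, against 1.29 ± 0.0867 FPKM in Ctrlv2 (SD, n = 3), a log2 fold change of -0.54 and -0.72 (limma adjusted p = 0.00959 and 0.00124). So the same gene that stood higher in Arf-B than in Ctrlv2 at day 8 stood lower at day 0. Hist3h2a was higher in both (0.59 and 0.56, limma adjusted p = 0.00485 and 0.00609), with 7 to 15 reads per Ctrlv2 library. Hist3h2ba was called higher in Arf-C (0.63, limma adjusted p = 0.0111), and Hist1h1c lower in Arf-C (-0.29, limma adjusted p = 0.0301). The Hist1h1c call was lost without Arf-C replicate 1 (adjusted p = 0.0602) or 3 (0.159) or Ctrlv2 replicate 1 (0.0983) or 3 (0.0837). Hist1h4h was called higher in Arf-B (0.63, limma adjusted p = 0.0198) and Hist1h2bp likewise (0.60, limma adjusted p = 0.0222), and each call was lost without Arf-B replicate 2 (adjusted p = 0.0587 and 0.127), Ctrlv2 replicate 1 (0.0578 and 0.0834) or Ctrlv2 replicate 2 (0.0844 and 0.0669). Hist2h3c2, an H3 gene named after its values were seen, had 0.652, 0.921 and 0.538 FPKM in Arf-B, 1.33, 0.706 and 0.895 FPKM in Arf-C and 0.0671, 0.155 and 0.274 FPKM in Ctrlv2 at day 0. No Arf library overlapped Ctrlv2 (limma adjusted p = 0.00211 and 0.000127).

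The difference between the day responses was tested directly. The change between the days was called more positive in Arf-B than in Ctrlv2 for 8 of the 35 tested genes and less positive for none, while 17.5% and 16.1% of all genes were called. At an unadjusted p below 0.05 limma gave 1 gene in the second direction, and limma-voom called none. In Arf-C it was more positive for 16 and less for 1 (19.4% and 18.9% of all genes), the H3 gene Hist2h3c2 (-0.64, limma adjusted p = 0.00828, and 0.0905 with limma-voom), named after its values were seen. The 8 in Arf-B were 2 H1, 5 H2b and 1 H3 genes, and the 16 in Arf-C were 2 H1, 1 H2a, 6 H2b, 5 H3 and 2 H4 genes. The largest differences in Arf-B were those of Hist3h2ba (1.54, SE 0.26, limma adjusted p = 0.000306) and Hist1h1c (1.35, SE 0.14, limma adjusted p = 4.17e-06). In Arf-C, Hist1h3i had the largest (1.74, SE 0.37, limma adjusted p = 0.002), and it shared 68.6% of its 100-base words with transcripts of other genes. Hist1h3c differed by 1.15 and 1.28 (limma adjusted p = 0.000161 and 5.06e-05), Hist1h2bc by 0.96 and 0.64 (limma adjusted p = 0.00013 and 0.00289), and Hist1h1a by 1.11 and 0.85 (limma adjusted p = 0.000942 and 0.00527) in Arf-B and Arf-C. The Hist3h2ba difference in Arf-C (1.22, limma adjusted p = 0.00171) was not called by limma-voom (adjusted p = 0.153).

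Between Arf-B and Arf-C few single genes were called, while some class sums lay apart. At day 0 limma called none of the 35 tested genes, at 0.105% of all genes higher and 0.238% lower; at an unadjusted p below 0.05 it gave 1 higher and 2 lower, and limma-voom called none. At day 8 Hist1h1c was called higher in Arf-B than in Arf-C (0.60, SE 0.10, limma adjusted p = 0.0334), and none was lower, where 0.0349% and 0.0233% of all genes were called; at an unadjusted p below 0.05 limma gave 7 lower, and limma-voom called none lower. The Hist1h1c call was lost without Arf-B replicate 1 (adjusted p = 0.132) or 2 (0.232) or Arf-C replicate 1 (0.0723), 2 (0.121) or 3 (0.145), though its libraries did not overlap. Summed by class, H1 was higher in Arf-B than in Arf-C at day 8 in all libraries (ratio of the means 1.55), and H3 was lower (0.717). At day 0 all Arf-B libraries lay above all Arf-C libraries for H4 (1.67), H3 (1.24) and the sum of all 67 genes (1.17). H2a and H2b overlapped at both days.

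Genes that end and transcribe histone mRNAs were called in both directions. Of 15 genes listed for 3′ processing and transcription, 14 were found and tested. At day 8 against Ctrlv2, 2 were called higher and 4 lower in Arf-B, and 3 higher and 4 lower in Arf-C, with median log2 fold changes of 0.02 and -0.04. Over all genes tested, 16.3% were called higher and 16.9% lower in Arf-B, and 16.8% each way in Arf-C. The list is small, and no result about it is drawn from these counts. Slbp, whose product binds the stem-loop, was lower in both Arf lines. It had 17.3, 14.4 and 15.6 FPKM in Arf-B, 15.5, 14.9 and 14.2 FPKM in Arf-C and 19.7, 20.7 and 18.6 FPKM in Ctrlv2 (log2 fold changes -0.31 and -0.38, limma adjusted p = 0.00753 and 0.00162). No library overlapped. At day 8 against day 0, Slbp fell in Arf-B and Arf-C (-0.36 and -0.45, limma adjusted p = 0.000818 and 0.000123), and the difference from the day response of Ctrlv2 was called in both (-0.37 and -0.46, limma adjusted p = 0.0177 and 0.0045). Npat, which activates histone gene transcription in S phase, had 16.7 ± 0.205 FPKM in Arf-B, 15.7 ± 0.472 FPKM in Arf-C and 16.7 ± 1.74 FPKM in Ctrlv2 at day 8 (SD, n = 3), without a call. The most abundant genes of the list were Srrt, Ncbp2, Ncbp1 and Upf1; Ncbp1, of the cap-binding complex, had 34.99 ± 0.607, 33.9 ± 1.47 and 34.0 ± 1.6 FPKM in Arf-B, Arf-C and Ctrlv2 at day 8.

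Histones made outside S phase, whose mRNAs are polyadenylated, were also higher in the Arf lines. Of 11 listed and tested, 9 were called higher at day 8 than in Ctrlv2 in each Arf line and none lower. At day 0 the counts were 6 (Arf-B) and 8 (Arf-C) higher and none lower. Among all genes tested at day 8, higher calls made up 16.3% for Arf-B and 16.8% for Arf-C, lower calls 16.9% and 16.8%. The matching day 0 shares were 19.1% and 21.2% for higher calls, 20.0% and 21.5% for lower calls. H2afx, which marks DNA breaks when phosphorylated and whose gene can also give a stem-loop mRNA, had 192, 199 and 204 FPKM in Arf-B, 203, 206 and 203 FPKM in Arf-C and 94.0, 80.7 and 80.9 FPKM in Ctrlv2 at day 8 (log2 fold changes 1.21 and 1.25, SE 0.08, limma adjusted p = 1.76e-08 and 1.28e-08). Arf libraries stood far above Ctrlv2 libraries. H2afz, the H2A.Z gene, had 185 ± 11 FPKM in Arf-B and 183 ± 10.4 FPKM in Arf-C, against 154 ± 6.55 FPKM in Ctrlv2 (0.26 and 0.24, limma adjusted p = 0.0132 and 0.0201). H3f3b, an H3.3 gene, had 434 ± 17.8, 406 ± 17 and 332 ± 26.9 FPKM, and H2afv had 92.4 ± 5.46, 91.1 ± 6.31 and 70.7 ± 9 FPKM in Arf-B, Arf-C and Ctrlv2 (SD, n = 3 each). H1f0, the linker histone gene of non-dividing cells, was picked after its values were seen: it had 112 ± 1.16 FPKM in Arf-B and 99.8 ± 10.9 FPKM in Arf-C, against 39.4 ± 7.68 FPKM in Ctrlv2 (1.49 and 1.33, limma adjusted p = 1.13e-07 and 4.01e-07). These levels are far above those of the cluster genes, of which the highest library value was 20.2 FPKM.

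**Figure D5:**
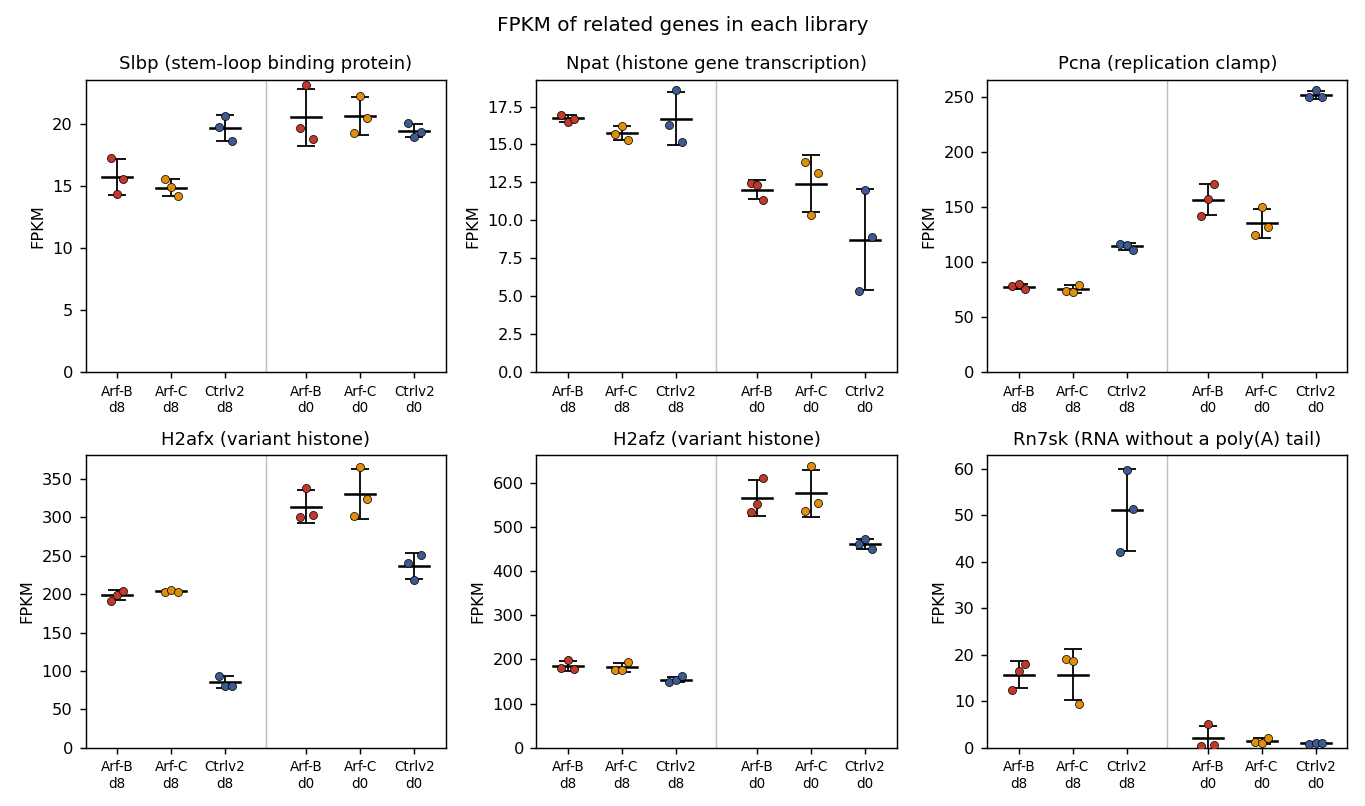
FPKM (vertical axes, from 0) of Slbp, Npat, Pcna, H2afx, H2afz and Rn7sk in the 3 libraries (points) of each line at day 8 and day 0, with the mean and SD (bars). At day 8 Slbp, Pcna and Rn7sk are lower and H2afx higher in every Arf library than in every Ctrlv2 library.

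S phase genes were lower at day 8 in every line. Of 16 listed and tested, 15 were called lower at day 8 than at day 0 in every line, with median log2 fold changes of -0.96 in Arf-B, -0.89 in Arf-C and -1.02 in Ctrlv2. Over all genes tested, 33.8%, 33.8% and 34.4% were called lower. At day 8 the summed level of the S phase genes was 603 ± 10 FPKM in Arf-B, 597 ± 7.82 FPKM in Arf-C and 607 ± 10.3 FPKM in Ctrlv2 (SD, n = 3). Against Ctrlv2, 3 were called higher and 2 lower in Arf-B, and 3 higher and 1 lower in Arf-C. The shares over all genes were 16.3% and 16.9% in Arf-B and 16.8% each way in Arf-C. Pcna, the replication clamp, was lower in the Arf lines at day 8, with 77.8 ± 2.12 and 75.5 ± 3.57 FPKM against 114 ± 3.14 FPKM in Ctrlv2, as the plot of related genes shows (log2 fold changes -0.55 and -0.59, limma adjusted p = 2.7e-05 and 1.27e-05). Of 12 histone chaperones, which carry histones to and from DNA, 3 were called higher and 3 lower in Arf-B than in Ctrlv2 at day 8. In Arf-C, 2 were called higher and 1 lower, against the same shares over all genes.

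RNAs that carry no poly(A) tail were looked at as a measure of carry-over. Of 11 listed, 4 passed the filter. Rn7sk, a small nuclear RNA, had 12.5, 16.6 and 18.04 FPKM in Arf-B, 19.0, 18.7 and 9.31 FPKM in Arf-C and 42.1, 59.7 and 51.3 FPKM in Ctrlv2 at day 8 (log2 fold changes -1.64 and -1.69, limma adjusted p = 0.00806 and 0.00662). At day 0 its group means were 1.99, 1.45 and 1.01 FPKM. Terc, the telomerase RNA, went the other way: it had 1.07, 1.399 and 1.67 FPKM in Arf-B, 1.14, 0.829 and 0.892 FPKM in Arf-C and 0.613, 0.223 and 0 FPKM in Ctrlv2 at day 8, and was called higher in Arf-B (0.92, limma adjusted p = 0.00968) but not in Arf-C (adjusted p = 0.0596). Scarna2 and Rny1 were called in neither line. The part of carry-over in the histone gene levels was not tested. The summed level of the 11 RNAs at day 8 was 17.95 ± 3.88 FPKM in Arf-B, 18.1 ± 4.07 FPKM in Arf-C and 52.9 ± 9.98 FPKM in Ctrlv2 (SD, n = 3).

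Cell type markers also differed between the lines at day 8. For scale, 16.3% of all genes tested were called higher and 16.9% lower in Arf-B than in Ctrlv2, and 16.8% each way in Arf-C. Of 8 pluripotency markers, all tested, 8 were called higher in Arf-B and 7 in Arf-C than in Ctrlv2, and none lower. Their summed level ran from 645 to 870 FPKM in Arf-B, from 536 to 897 FPKM in Arf-C and from 105 to 136 FPKM in Ctrlv2, against 4127 to 5157 FPKM in the day 0 libraries. Of 5 markers of parietal or visceral endoderm, 4 were tested, and all 4 were called lower in both Arf lines; the sums ran from 60.4 to 61.5, 59.9 to 66.3 and 271 to 370 FPKM in Arf-B, Arf-C and Ctrlv2. Of 7 markers of definitive endoderm and foregut, 6 were tested, of which 3 were called lower in each Arf line and 1 higher in Arf-C, with sums of 15.0 to 16.9, 16.8 to 19.9 and 34.8 to 41.4 FPKM. Of 5 fibroblast markers, 3 were tested, with 1 called higher and 2 lower in each Arf line, and of 3 blood markers none passed the filter. Fibroblast markers summed to at most 4.67 FPKM and blood markers to at most 0.356 FPKM in a day 8 library, with Hbb-bt at 0 in all 18. Marker levels and the depth of the libraries thus moved with the histone gene levels at day 8. Whether the mix of cells differed was not tested, nor was the part of the mix or of depth in the histone gene levels.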

How the data were processed

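The authors deposited 1 table of FPKM values with gene positions and lengths; per the submitters' processing notes, HISAT2, featureCounts, DESeq2 and the mm10 assembly were used. The sources used here do not say how multi-mapping and antisense reads were counted. All 413772 values above 0 were whole multiples of 1 read within a tolerance of 0.001 reads, so reads were recovered from the FPKM values as deposited. Libraries held 10432590 to 33311220 reads on genes. All columns of samples were used (0 were left out).

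Tests were made with limma 3.58.1 (R 4.3.3, statmod 1.5.0; trend and robust settings) on log2(FPKM + 1), for the 17200 genes that reached 0.5 FPKM in 3 or more libraries, in 1 model of the 6 groups. Benjamini-Hochberg adjustment covered all 17200 genes in each of 11 comparisons, and the threshold was 0.05. The script was tested on simulated data. A count model was not used as the main test because the deposited unit is FPKM. Class sums and figures used Python 3.11.15, pandas 2.3.3, numpy 2.4.6 and matplotlib 3.10.9. Stem-loops were searched in GENCODE vM21 transcripts and motifs in RefSeq promoters, on both strands; no genome sequence was used here. The tests used values of 0 as deposited. Only for the bounds on folds and the medians with a bound was a gene at 0 in a group set to a floor of 3 reads per library. A gene whose other group lay under that floor was left out of those medians.

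The genes, the lists and the tests were chosen with earlier results of these data known. Named were, per class, the 4 genes with the highest mean FPKM; per comparison and direction, up to 4 called genes with the largest change, at least 1 FPKM in the higher group and libraries apart; up to 4 most abundant genes of a list; and Slbp and Npat. Alternatives were a smaller pseudocount (0.1), testing without the filter or with a mean of 1 FPKM as the minimum, scaling to the same sum of FPKM, limma-voom on recovered reads, the replicate number as a block, and leaving out each library.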

Additional observations from a re-analysis of the deposited data

Results flagged for a closer look

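The results below are all those tested histone genes whose change between day 8 and day 0 differed between an Arf line and Ctrlv2 by limma's test of that difference (adjusted p below 0.05); each value is the log2 day response of the Arf line minus that of Ctrlv2. In Arf-B the difference was 1.54 for Hist3h2ba, 1.35 for Hist1h1c, 1.15 for Hist1h3c, 1.11 for Hist1h1a, 0.96 for Hist1h2bc, 0.95 for Hist1h2bf, 0.89 for Hist1h2bg and 0.72 for Hist2h2be. In Arf-C it was 1.74 for Hist1h3i, 1.28 for Hist1h3c, 1.27 for Hist1h2bj, 1.26 for Hist1h2bg, 1.22 for Hist3h2ba, 1.21 for Hist1h4k, 1.19 for Hist1h2bk, 0.97 for Hist1h3g and for Hist1h3a, 0.94 for Hist1h4i, 0.88 for Hist1h2bf, 0.85 for Hist1h1a and for Hist1h2ak, 0.78 for Hist1h1c, 0.74 for Hist1h3h, 0.64 for Hist1h2bc and -0.64 for Hist2h3c2. Hist2h3c2 was the only negative one. Hist1h2bg had no read in Ctrlv2 at day 8, so its fitted values depend on the pseudocount and are no bounds. Both lines were set against the same Ctrlv2 libraries.

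Several of these calls were lost when 1 library was left out. In Arf-B, Hist1h2bg was lost without any of 7 libraries (limma adjusted p 0.0738 to 0.125), and Hist1h2bf without any of 7 (up to 0.0922). In Arf-C, Hist1h2bj was lost without any of 8 libraries (0.0579 to 0.0841), Hist1h3h without any of 8 (0.0538 to 0.105), Hist1h4k without any of 8 (0.0662 to 0.111), Hist1h3g without any of 6 (0.0745 to 0.105), Hist1h4i without any of 9 (0.0572 to 0.107), Hist1h2bf without any of 9 (up to 0.108) and Hist1h3a without any of 4 (up to 0.0677). Hist1h3c, Hist1h1c, Hist1h1a, Hist1h2bc and Hist3h2ba kept their calls in both lines whichever library was left out, as did Hist2h2be in Arf-B and Hist1h3i, Hist1h2bg, Hist1h2bk, Hist1h2ak and Hist2h3c2 in Arf-C.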

How the results depend on the processing

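Of 220 results on the named genes, 82 were called. Under some alternative, leaving out libraries included, 40 changed sign, none of them called with or without that alternative. Calls were lost in 30 of the 82 without some library, in 9 with a pseudocount of 0.1, in 18 with no filter, in 4 with same-sum scaling, in 14 with limma-voom and in 7 with the replicate block. Numbers of genes called higher and lower at day 8 against day 0 with a filter at a mean of 1 FPKM were 3 and 3 in Arf-B, 5 and 1 in Arf-C and 1 and 5 in Ctrlv2. With that filter 1 was higher and 1 lower in Arf-B than in Ctrlv2 at day 0, 2 were higher in Arf-C, and 7 (Arf-B) and 10 (Arf-C) were higher at day 8. The day response was then higher for 4 in Arf-B and 10 in Arf-C. Fewer genes were tested under that filter. Same-sum scaling left 3 genes lower at day 8 in Arf-B, limma-voom left 5 higher at day 8 in Arf-C, and no filter left 2 lower in Arf-C than in Ctrlv2 at day 0. The replicate numbers did not pair the libraries: of 45 same-numbered pairs, 3 correlated over 0.1 (-0.251 to 0.203), and 7 of 18 libraries correlated best with their own number. With the replicate block, 0 genes were called between Arf-B and Arf-C at day 8.

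Leaving out single libraries gave 4 to 7 higher and 2 to 8 lower at day 8 in Arf-B, 4 to 7 and 2 to 3 in Arf-C, and 2 to 4 and 10 to 14 in Ctrlv2. Against Ctrlv2 it gave 3 to 7 higher and 2 to 3 lower in Arf-B and 4 to 5 and 2 to 4 in Arf-C at day 0, and 10 to 13 and 11 to 16 higher at day 8, with 0 lower. Between Arf-B and Arf-C it gave 0 at day 0 and 0 to 1 at day 8. Day responses were higher for 6 to 9 in Arf-B and 12 to 15 in Arf-C.

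Among the 5 class sums, classes with all libraries apart at day 8 against day 0 numbered 1 to 2 higher and 1 to 2 lower in Arf-B, 3 to 4 higher in Arf-C, and 0 to 1 higher and 3 to 4 lower in Ctrlv2 when single libraries were left out. Against Ctrlv2 at day 0 they numbered 2 to 3 higher and 1 to 2 lower in Arf-B, and 1 to 2 and 2 to 3 in Arf-C; at day 8 all 5 stayed higher in both. Same-sum scaling gave 3 higher and 0 lower in Arf-B and 1 higher in Ctrlv2 at day 8. Without each class's highest gene there were 2 higher and 0 lower at day 8 in Arf-B, and 1 (Arf-B) and 0 (Arf-C) higher than Ctrlv2 at day 0. At day 8, 3 were then higher in Arf-C than in Ctrlv2, and all but H4 were higher in Arf-B. The medians by length changed order with the division at 600 bases (0.502 and 0.21 FPKM). The cause of these changes was not tested. Most genes rest on few reads: 321 to 1734 reads per library over all 67 genes limit what could be called.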
